A study of Mus musculus with 7 samples.

Results

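The insulin-like growth factor (IGF) system was followed across C2C12 myotubes that were left unstimulated or given electrical pulse stimulation (EPS). It was taken as 10 genes, found by their exact symbols among the 26607 genes listed in the files. These are the ligand genes Igf1 and Igf2, the receptor genes Igf1r and Igf2r, the IGF-binding protein genes Igfbp2, Igfbp3, Igfbp4, Igfbp5 and Igfbp6, and the related Igfbp7. All 10 were detected in every library. C2C12 is an established line of mouse myoblasts, which differentiate and fuse into multinucleated myotubes in low serum. The control group was 3 libraries from unstimulated myotubes, numbered 1, 3 and 4, and the EPS group was 4 libraries, numbered 1 to 4. Values of single libraries are given in this order throughout. Pulses began 3 days after differentiation and lasted 24 h, with 1 h of rest before the RNA was taken. Both groups are cultures of a single line without nerve, blood supply or other tissues.

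IGF1 and IGF2 are secreted peptides that activate IGF1R, a receptor tyrosine kinase that signals through IRS adaptors, PI3K and AKT and favours growth and protein synthesis in muscle. IGF2R carries no kinase and takes IGF2 to the lysosome. The IGFBPs bind the ligands outside the cell, hold them away from the receptor or release them when proteases cleave the binding protein. In cultured muscle cells Igf2 and Igfbp5 are known to rise during differentiation.

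The libraries held between 16616917 and 22120641 reads on listed genes. The values are CPM, the reads of a gene relative to all reads of its library. Control replicate 4 stood apart, with only 359 genes at 1 to 5 reads where each of the others had 2670 to 3181. It had 14014 genes above 0, where the others had 16144 to 16984. Several IGF genes were highest in it, so results are given with and without it where it matters. The share of reads on the ribosomal RNA gene Rn45s was between 5.13% and 8.09% in the control and between 2.94% and 6.33% in the EPS group. Among genes with a mean of at least 1 CPM, the median log2 fold change was 0.10, and it was -0.0048 after median-of-ratios scaling, so the log2 fold changes below sit against a shift of about this size.

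Of the 10 genes, 2 passed P under 0.01 and 2-fold in limma, Igf1 and Igfbp3, and both were lower in the EPS group. Over the 19144 tested genes, 1.41% passed both thresholds, 0.966% higher and 0.439% lower. Among the genes with a mean of at least 1 CPM, as all 10 are, the share was 2.15%. Without control replicate 4 the count was 1 of 10, Igf1, against 1.09% of all genes. The EPS libraries lay below every control library in 3 of the 10, Igf1, Igfbp3 and Igfbp5, and above them in 0. Over all tested genes 2.85% were lower without overlap and 7.76% higher, and 3.49% of the genes with a mean of at least 1 CPM were lower in this way. No IGF gene had an adjusted p under 0.05 in this limma fit, where 0.141% of all tested genes did. An unadjusted P under 0.05 was found for 2, again Igf1 and Igfbp3, against 11.6% of all tested genes. In edgeR with TMM and in DESeq2 on the recovered reads, Igf1 and Igfbp3 both had an adjusted p under 0.05, as did 1.51% and 3.39% of the genes with an adjusted p. Over the 17 alternatives, which include other limma fits, Igf1 had one under 0.05 in 5 and Igfbp3 in 4.

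**Figure D1:**
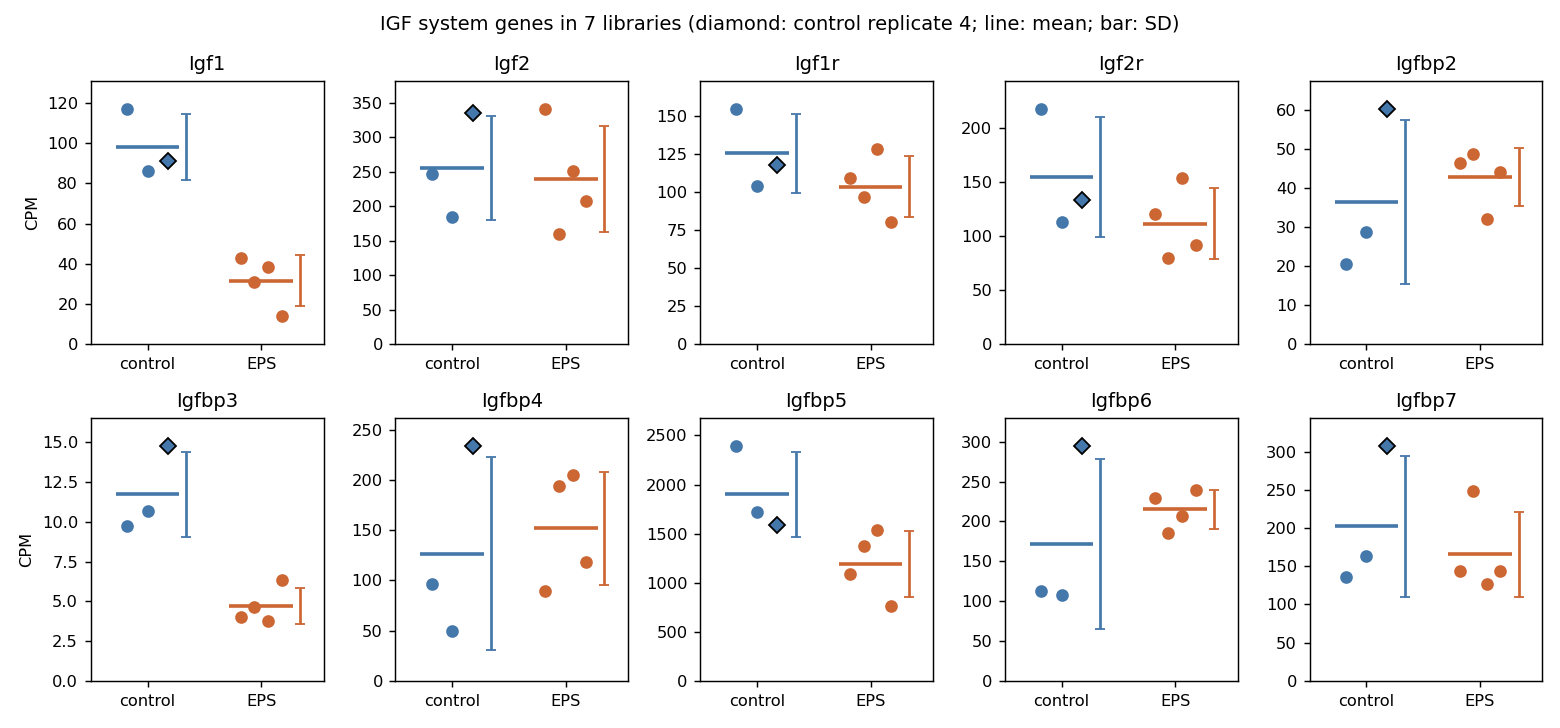
CPM of the 10 IGF system genes in each library, with 3 control libraries in blue and 4 EPS libraries in orange, the group mean as a line and the SD as a bar (vertical axes start at 0). Igf1, Igfbp3 and Igfbp5 are the genes whose groups do not overlap, and the diamond, control replicate 4, is the highest control library for Igf2, Igfbp2, Igfbp3, Igfbp4, Igfbp6 and Igfbp7.

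Igf1 (ENSMUSG00000020053.18) lies at chr10:87858265-87937042 (GRCm38), on the plus strand. Its level was 117, 86.2 and 91.1 CPM in the control libraries, and 42.9, 30.9, 38.4 and 14.0 CPM in the EPS libraries. The groups did not overlap, and EPS replicate 4 was the lowest library. The mean was 98.1 ± 16.5 CPM (SD, n = 3) without EPS and 31.6 ± 12.7 CPM (SD, n = 4) with EPS, a 3.11-fold fall. On the log2 scale this was -1.70, with an SE of 0.35 and a 95% interval from -2.49 to -0.92 (adjusted p = 0.101 from limma). Across the alternatives the adjusted p ranged from 6.24e-05 in DESeq2 to 0.520 at the highest. The exact permutation test gave p = 0.0286, the smallest that 3 libraries against 4 allow. These values rest on 264 to 922 reads in the EPS libraries and on 1432 to 2016 in the control libraries, so counting error was small beside the spread between libraries. The fall stayed past both thresholds without any 1 library, with log2 fold changes from -1.88 without EPS replicate 1 to -1.37 without EPS replicate 4. An antisense gene, Igf1os, overlaps Igf1 in the annotation and has no row under that symbol in the files.

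Igf2 (ENSMUSG00000048583.16) lies at chr7:142650766-142666816 (GRCm38), on the minus strand, in an imprinted cluster in which the paternal copy is the active one. Its level was 247, 185 and 335 CPM in the control libraries, and 341, 160.2, 251 and 208 CPM in the EPS libraries. The groups overlapped fully, since the highest and the lowest libraries were both EPS libraries. The means were 256 ± 75.6 CPM (SD, n = 3) and 239.9 ± 76.6 CPM (SD, n = 4). On the log2 scale the change was -0.10 with a 95% interval from -0.76 to 0.55 (adjusted p = 0.898 from limma), so neither a moderate rise nor a moderate fall lies outside the interval. Its sign turned without control replicate 4, to 0.11, and without EPS replicate 2, to 0.07. The annotation also places the read-through gene Gm49394 over Igf2 on the same strand, and it has no row under that symbol in the files.

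The ligands therefore made up different mixtures in the groups. Counted per kb of exon, which allows for the longer Igf1 transcripts, Igf1 was 20.1%, 19.8% and 12.6% of the summed ligand level in the control libraries. It was 6.26%, 9.27%, 7.51% and 3.45% in the EPS libraries. Igf2 was the more abundant ligand per kb in all 7 libraries, at 48.7 ± 14.4 CPM per kb (SD, n = 3) against 9.90 ± 1.67 CPM per kb (SD, n = 3) for Igf1 in the control. In the EPS group Igf2 was at 45.7 ± 14.6 CPM per kb (SD, n = 4) and Igf1 at 3.19 ± 1.28 CPM per kb (SD, n = 4).

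Igf1r (ENSMUSG00000005533.10), the gene of the signalling receptor, lies at chr7:67952827-68233668 (GRCm38). It was at 155, 104 and 118 CPM in the control libraries, and at 109.6, 96.6, 128 and 80.6 CPM in the EPS libraries. The groups overlapped, and only control replicate 1 lay above all EPS libraries. The log2 fold change was -0.27 with a 95% interval from -0.73 to 0.18 (adjusted p = 0.651 from limma). A change of 2-fold or more in either direction lies outside this interval. Without control replicate 1 the log2 fold change was -0.12.

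Igf2r (ENSMUSG00000023830.14), which encodes the clearance receptor for IGF2, lies at chr17:12682406-12769664 (GRCm38). It was at 217, 113 and 133 CPM in the control libraries, and at 120.3, 79.7, 154 and 92.0 CPM in the EPS libraries. EPS replicate 3 lay above control replicates 3 and 4, so the groups overlapped. Its log2 fold change was -0.46 with a 95% interval from -1.10 to 0.19 (adjusted p = 0.589 from limma). Without control replicate 1 it was -0.18. The related insulin receptor gene Insr was at 73.9 CPM on average in the control and 88.1 CPM with EPS, which is 0.25 on the log2 scale (adjusted p = 0.629 from limma).

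Ratios of 2 genes within a library do not depend on how the libraries were scaled, although their size depends on gene length. The reads of Igf1 over those of Igf1r were 0.756, 0.826 and 0.772 in the control libraries. They were 0.392, 0.320, 0.300 and 0.174 in the EPS libraries. This ratio was nearly level among the controls, lower in each EPS library, and its groups did not overlap. The ratio of Igf1 to Igf2 was between 0.272 and 0.473 in the control and between 0.0673 and 0.193 in the EPS group. The ratio of Igf1r to Igf2r overlapped, at 0.713 to 0.924 in the control and 0.834 to 1.21 in the EPS group. Of 8 ratios computed, 5 did not overlap between the groups and 3 did. The ratios were picked after the values were seen. Each of the 5 has Igf1, Igfbp3 or H19 on top, genes whose own EPS libraries all lay below the controls. The 5 ratios therefore restate those falls and are no separate evidence for them.

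**Figure D2:**
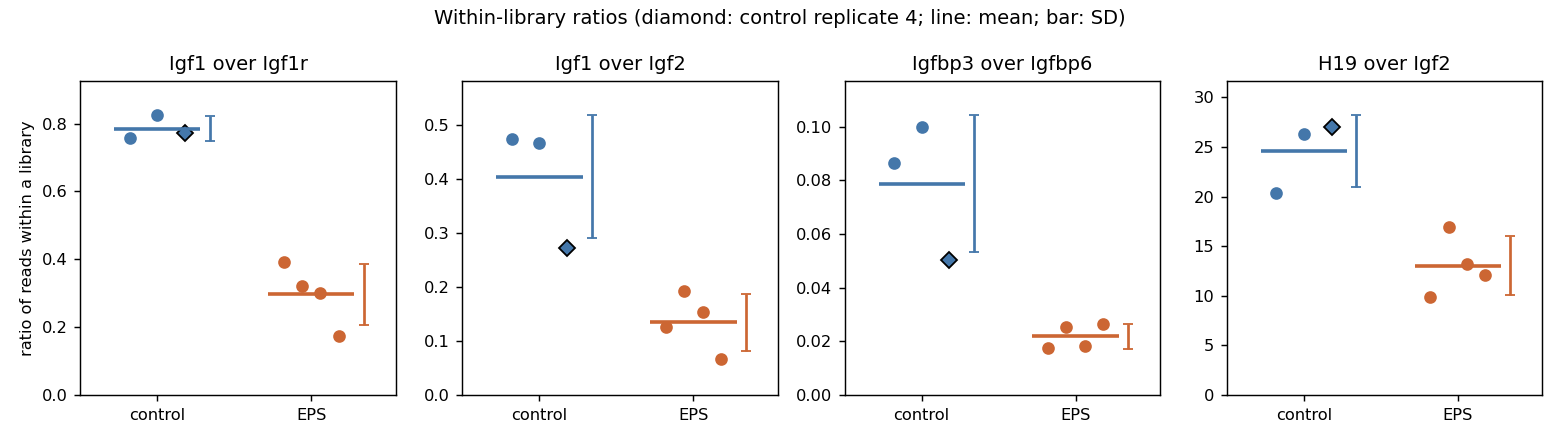
Ratios of reads of 2 genes within each library for Igf1 over Igf1r, Igf1 over Igf2, Igfbp3 over Igfbp6 and H19 over Igf2, with control libraries in blue and EPS libraries in orange, group means as lines and SD as bars (vertical axes start at 0). In each panel, drawn from the 5 of 8 ratios whose groups did not overlap, every EPS library lies below every control library, as for Igf1 over Igf1r, where the EPS libraries are between 0.174 and 0.392 and the control libraries between 0.756 and 0.826.

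Among the binding proteins, Igfbp3 (ENSMUSG00000020427.11) was the one past the thresholds. IGFBP3 is the main carrier of IGF in blood and is also made by many cell types. The gene lies at chr11:7206086-7213923 (GRCm38), on the minus strand. Its level was 9.74, 10.7 and 14.8 CPM in the control libraries, and 4.05, 4.68, 3.75 and 6.32 CPM in the EPS libraries. Each EPS library was below each control library. The mean was 11.7 ± 2.68 CPM (SD, n = 3) without EPS and 4.70 ± 1.15 CPM (SD, n = 4) with EPS. This is a log2 fold change of -1.16 with an SE of 0.26 and a 95% interval from -1.76 to -0.56 (adjusted p = 0.135 from limma). Over the alternatives the adjusted p ranged from 1.06e-04 in DESeq2 to 0.518 at the highest. The exact permutation test gave p = 0.0286, again the smallest possible. Control replicate 4 held the highest value, and without it the log2 fold change of Igfbp3 was -0.9973, just under 2-fold on the log2(CPM + 1) scale. The pseudocount shrinks the change of a gene at this level. With a pseudocount of 0.1 and all libraries, the log2 fold change was -1.31. With 82 to 119 reads per EPS library Igfbp3 was the least abundant gene of the system. Its neighbour on chromosome 11, Igfbp1, a binding protein made mainly in liver, had 0 reads in all 7 libraries, which allows a level of up to 0.136 to 0.181 CPM (3 reads, counting error only).

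Igfbp5 (ENSMUSG00000026185.8) lies at chr1:72857932-72874884 (GRCm38), on the minus strand, and had the highest level of the system per kb in the control. It was at 2393, 1722 and 1588 CPM in the control libraries, and at 1093, 1373, 1534 and 762 CPM in the EPS libraries. The groups did not overlap, but EPS replicate 3 lay close under control replicate 4. The means were 1900.8 ± 431 CPM (SD, n = 3) and 1190.4 ± 339 CPM (SD, n = 4), which is 1.60-fold lower with EPS. This is a log2 fold change of -0.70 with an SE of 0.35 and a 95% interval from -1.50 to 0.096 (adjusted p = 0.488 from limma; exact permutation test, p = 0.0571). It did not pass the thresholds, and the log2 fold change stayed between -0.84 and -0.50 when each library was left out in turn.

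The start sites of these 3 genes are shown because they are the ones whose groups did not overlap. Each sequence is a RefSeq window on GRCm38.p6 of 300 bases, 250 before and 50 after an annotated start site, written 5′ to 3′ on the gene's strand. Capitals mark matches to the E-box CANNTG on either strand, the letters that myogenic factors such as MyoD bind. The Igf1 window is chr10:87860861-87861160, whose start site is 2846 bases inside the gene from its first annotated base, the Igfbp3 window is chr11:7213874-7214173 and the Igfbp5 window is chr1:72874816-72875115.
Igf1: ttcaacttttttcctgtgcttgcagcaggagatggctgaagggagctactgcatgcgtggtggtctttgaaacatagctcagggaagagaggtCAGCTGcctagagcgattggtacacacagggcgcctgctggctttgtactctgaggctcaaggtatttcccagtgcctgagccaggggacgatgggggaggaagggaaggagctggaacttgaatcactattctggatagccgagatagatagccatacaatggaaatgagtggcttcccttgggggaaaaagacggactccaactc
Igfbp3: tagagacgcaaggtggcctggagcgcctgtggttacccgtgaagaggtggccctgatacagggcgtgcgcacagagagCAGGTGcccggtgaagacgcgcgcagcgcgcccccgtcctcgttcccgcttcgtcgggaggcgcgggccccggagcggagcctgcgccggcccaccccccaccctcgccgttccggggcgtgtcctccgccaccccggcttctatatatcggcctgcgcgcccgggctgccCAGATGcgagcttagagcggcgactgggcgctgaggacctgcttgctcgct
Igfbp5: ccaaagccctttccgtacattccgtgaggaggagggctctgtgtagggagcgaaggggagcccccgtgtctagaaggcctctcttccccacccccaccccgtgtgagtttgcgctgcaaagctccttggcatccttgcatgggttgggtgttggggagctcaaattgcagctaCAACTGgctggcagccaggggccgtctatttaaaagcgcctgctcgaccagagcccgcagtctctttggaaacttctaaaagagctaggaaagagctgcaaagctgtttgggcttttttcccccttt
Igf1 holds 1 E-box, CAGCTG, and Igfbp5 holds 1, CAACTG. Igfbp3 holds 2, CAGGTG and CAGATG. An E-box is found in 72.3% of all 32851 windows of this length, and in 10 of the 14 windows of IGF genes. The form CAGCTG, which is itself an E-box, is in 16.3% of all windows and, of the IGF genes, in Igf1. None of the 3 windows holds the TATA box TATAAA (13.6% of all windows) or the GC box GGGCGG (35.7%). Of 6 further motifs searched on both strands, the core of the xenobiotic response element, GCGTG, is in the Igf1 and Igfbp3 windows and in 32.4% of all windows. The AP-1 site TGANTCA is in the Igf1 window and in 7.81% of all windows. The antioxidant response element core TGACNNNGC (12.4%), the FOXO site GTAAACA (3.65%), the cyclic AMP response element TGACGTCA (1.79%) and the MEF2 site (3.69%) are in none of the 3. The windows also differ in base composition. The Igfbp3 window has 71.7% G and C and 37 CpG dinucleotides, against 52.3% and 6 for Igf1 and 56.3% and 10 for Igfbp5, where the median over all windows is 52.7% and 7. These matches describe the letters in the windows and show nothing of binding.

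Igfbp2, Igfbp4 and Igfbp6 were higher in the EPS group on average, but their groups overlapped. For Igfbp2 and Igfbp6 they overlapped only through control replicate 4, and for Igfbp4 also without it. Igfbp6, whose product prefers IGF2 over IGF1, lies at chr15:102144362-102149511 (GRCm38) (ENSMUSG00000023046.6). It was at 112, 107 and 295 CPM in the control libraries, and at 229.9, 185, 207 and 239.5 CPM in the EPS libraries. The EPS libraries were close to each other and above control replicates 1 and 3, whereas control replicate 4 was above them all. Its log2 fold change was 0.49 with a 95% interval from -0.27 to 1.24 (adjusted p = 0.628 from limma). Without control replicate 4 it was 0.96, short of 2-fold although P was under 0.01 (adjusted p = 0.0984 from limma). It was 0.27 without control replicate 1, 0.23 without control replicate 3 and 0.21 in DESeq2.

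Igfbp2 (ENSMUSG00000039323.18), next to Igfbp5 on chromosome 1 of GRCm38, runs on the opposite strand from 72824503 to 72852474. It was at 20.5, 28.6 and 60.2 CPM in the control libraries, and at 46.5, 48.9, 32.0 and 44.1 CPM in the EPS libraries. The order was as for Igfbp6, with control replicate 4 above and the other controls below all EPS libraries. The log2 fold change was 0.35 with a 95% interval from -0.40 to 1.11 (adjusted p = 0.738 from limma), and 0.78 without control replicate 4 (adjusted p = 0.264 from limma), again past P under 0.01 and under 2-fold. In the fit without control replicate 4, 3.56% of the 19090 tested genes had a P under 0.01. Leaving out control replicate 1 instead gave 0.02. The neighbouring pair thus had mean changes of opposite sign, with Igfbp5 lower and Igfbp2 higher, and neither passed the thresholds.

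Igfbp4 (ENSMUSG00000017493.12) lies at chr11:99041244-99054392 (GRCm38) and encodes the binding protein that the protease PAPPA cleaves. It was at 96.3, 50.01 and 234 CPM in the control libraries, and at 89.8, 194, 205 and 118 CPM in the EPS libraries. Its controls spanned the whole EPS range, and its log2 fold change was 0.46 with a 95% interval from -0.66 to 1.57 (adjusted p = 0.779 from limma). It was 1.03 without control replicate 4 and -0.07 without control replicate 3, so its sign depended on 1 library.

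Igfbp7 (ENSMUSG00000036256.13), whose product binds IGFs only weakly, lies at chr5:77349240-77408041 (GRCm38). It was at 136, 163 and 307 CPM in the control libraries, and at 144, 249, 126 and 143 CPM in the EPS libraries. The groups overlapped, with a log2 fold change of -0.25 and a 95% interval from -0.98 to 0.48 (adjusted p = 0.813 from limma). Without control replicate 4 its sign turned, to 0.10. The end of Polr2b overlaps an exon of Igfbp7 on the opposite strand, and whether the counting used strand is not given in the sources used here.

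**Figure D3:**
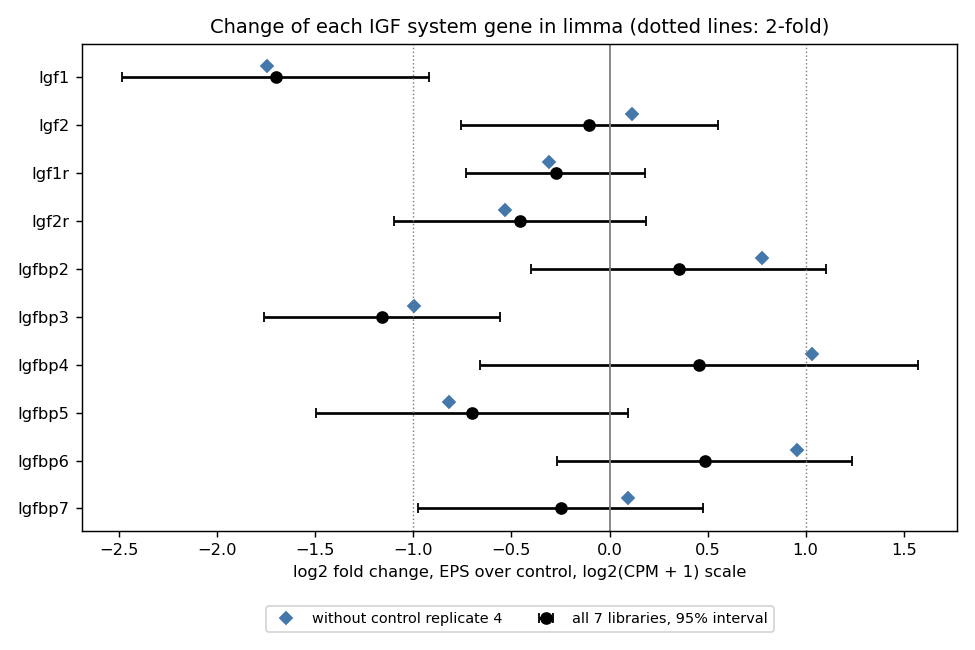
Log2 fold change of EPS over control for each IGF system gene on the log2(CPM + 1) scale, with the limma estimate and its 95% interval from all 7 libraries in black and the estimate without control replicate 4 as blue diamonds. Igf1 and Igfbp3 have intervals that lie wholly below 0, and leaving out control replicate 4 moves Igfbp2, Igfbp4 and Igfbp6 upwards, to 0.78, 1.03 and 0.96.

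Ordered by their control mean in CPM per kb, the genes ran Igfbp5 (316), Igfbp7 (167), Igfbp6 (154), Igf2 (48.7), Igfbp4 (32.3), Igfbp2 (25.0), Igf2r (17.4), Igf1r (11.01), Igf1 (9.90) and Igfbp3 (3.75). Among the control libraries, neighbours in this order were separated in 3 places, Igfbp5 above Igfbp7, Igfbp6 above Igf2, and Igf1 above Igfbp3. The other neighbours overlapped. In the EPS group Igfbp5 was at 198 ± 56.4 CPM per kb (SD, n = 4) and Igfbp6 at 194 ± 21.9 CPM per kb (SD, n = 4), and their ranges overlapped, as they did in the control through replicate 4. Igf1r and Igf1, and also Igfbp2 and Igf2r, had ranges that overlapped in the control and were separated in the EPS group. The ranges of Igfbp5 and Igfbp7, and those of Igf1 and Igfbp3, were separated in the control and overlapped in the EPS group.

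The mixture of Igfbp2 to Igfbp6 transcripts was led by Igfbp5 and Igfbp6. Per kb, Igfbp5 was 73.6%, 68.4% and 41.6% of their sum in the control libraries, and 40.9%, 47.7%, 49.4% and 31.4% in the EPS libraries. Igfbp6 was 18.7%, 23.1% and 41.7% in the control replicates and 46.5%, 34.7%, 36.0% and 53.2% in the EPS replicates. Control replicates 1 and 3 differed from all EPS libraries in both shares, whereas control replicate 4 lay among them. The share of Igfbp3 was small, at 0.575% to 0.817% in the control and 0.232% to 0.499% in the EPS group, and did not overlap. The ratio of Igfbp3 to Igfbp6 reads did not overlap either, at 0.0502 to 0.0997 in the control and 0.0176 to 0.0264 in the EPS group. That of Igfbp3 to Igfbp2 was 0.245 to 0.474 in the control and 0.0872 to 0.143 in the EPS group. The ratios of Igfbp5 overlapped, at 5.39 to 21.3 against 3.18 to 7.42 over Igfbp6, and at 26.4 to 117 against 17.3 to 48.0 over Igfbp2.

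**Figure D4:**
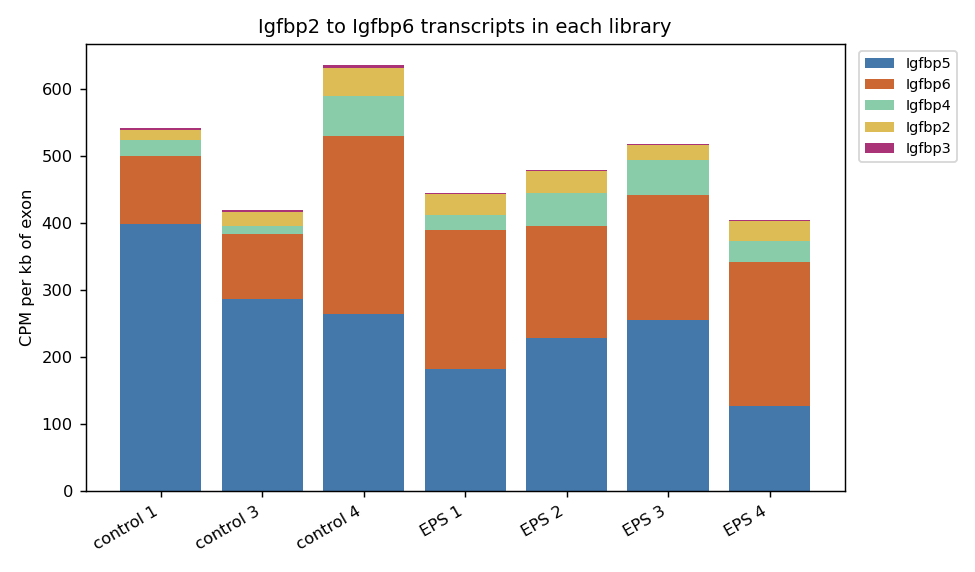
Stacked level of Igfbp2 to Igfbp6 in each library, in CPM per kb of exon, with 3 control libraries on the left and 4 EPS libraries on the right. Igfbp5 is 73.6% and 68.4% of the sum in control replicates 1 and 3, 41.6% in control replicate 4, and between 31.4% and 49.4% in the EPS libraries.

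Other genes of the pathway were taken from fixed lists. Of 11 tested genes that encode IGFBP relatives, IGFBP-cleaving proteases or their inhibitors, 1 was lower (0.439% over all tested genes) and 0 were higher (0.966%) at P under 0.01 and 2-fold, with a median log2 fold change of -0.15 against 0.04 over all tested genes. Without control replicate 4 the median was -0.02. The one was Adamts1, a secreted metalloprotease of the matrix. It was at 111, 100.3 and 67.3 CPM in the control libraries, and at 47.7, 29.1, 30.9 and 36.8 CPM in the EPS libraries. Its log2 fold change was -1.33 (adjusted p = 0.0730 from limma), and its groups did not overlap. In edgeR its adjusted p was 0.00167 and in DESeq2 9.09e-06. It was the 1 gene of the list under 0.05 in each, against 1.51% and 3.39% over all genes. Pappa, the gene of the IGFBP4 protease, was low, at 4.38 ± 0.979 CPM (SD, n = 3) without EPS and 3.10 ± 0.942 CPM (SD, n = 4) with EPS, and its groups overlapped. Stc2, whose product inhibits PAPPA, had a log2 fold change of 0.07 (limma, adjusted p = 0.930). The protease genes Ctsd, of the lysosome, and Htra1, which is secreted, had the highest mean CPM of the list and log2 fold changes of -0.16 and -0.07.

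Of 20 tested genes of receptor relatives and adaptors, 0 passed the thresholds in limma in either direction, and the median log2 fold change was -0.06. An unadjusted P under 0.05, which 11.6% of all tested genes had, was found for 1 of them, Irs1, and an adjusted p under 0.05 for 0 in edgeR and 0 in DESeq2. The phosphatase gene Ptpn11 and the adaptor gene Crk, with the highest mean CPM, had log2 fold changes of 0.07 and -0.04. Irs1, the gene of the main adaptor of IGF1R, was at 225, 186 and 163 CPM in the control libraries, and at 167, 107, 156 and 113 CPM in the EPS libraries. It had a log2 fold change of -0.51 (limma, adjusted p = 0.388) and overlapping groups. Irs2 had a log2 fold change of 0.40 (limma, adjusted p = 0.611), and 0.14 without control replicate 4. Of 28 genes of PI3K, AKT and mTOR signalling, 0 passed in limma, with a median of 0.06, 2 at an unadjusted P under 0.05 (11.6% over all genes), and an adjusted p under 0.05 for 0 in edgeR and 1, Rps6kb1, in DESeq2 (1.51% and 3.39% over all genes). Akt1 and Deptor, with the highest mean CPM, had log2 fold changes of -0.08 and -0.14. Rps6kb1, which encodes the S6 kinase downstream of mTOR, was at 103 ± 5.95 CPM (SD, n = 3) without EPS and 76.2 ± 4.71 CPM (SD, n = 4) with EPS. Its groups did not overlap, with a log2 fold change of -0.43 that is under 2-fold (adjusted p = 0.229 from limma). The list held 2 genes lower without overlap (2.85% over all tested genes) and 0 higher (7.76%). The second was Rps6kb2, with a log2 fold change of -0.40, and -0.21 without control replicate 4. Pik3cb, a catalytic subunit gene of PI3K, was the gene besides Rps6kb1 with an unadjusted P under 0.05. It was at 37.3 ± 6.76 CPM (SD, n = 3) without EPS and 56.6 ± 10.6 CPM (SD, n = 4) with EPS. Its log2 fold change was 0.58 (limma, adjusted p = 0.285), and its groups overlapped.

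Of 12 FOXO factor genes and targets, which AKT holds in check, 1 passed as higher (0.966% over all tested genes) and 0 as lower (0.439%), with a median log2 fold change of 0.11. The one was Bnip3, a mitophagy gene, with a log2 fold change of 1.54 (limma, adjusted p = 0.231). Its adjusted p was 0.0250 in edgeR and 0.00770 in DESeq2. It was the 1 gene of the list under 0.05 in each, against 1.51% and 3.39% over all genes. Its groups overlapped, because control replicate 3 (101 CPM) was above EPS replicate 4 (97.8 CPM), and it did not pass without control replicate 4, where the log2 fold change was 1.41. The atrophy ubiquitin ligase gene Fbxo32 had a log2 fold change of 0.10. Foxo1 was at 71.6 ± 10.5 CPM (SD, n = 3) without EPS and 49.0 ± 9.27 CPM (SD, n = 4) with EPS, with no overlap and a log2 fold change of -0.55 (limma, adjusted p = 0.305).

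Igf2 and Igf2r are imprinted, and their partners at the same loci were examined with other imprinted genes and the IGF2 mRNA-binding proteins. Of 13 tested genes of this list, 1 was lower at P under 0.01 and 2-fold (0.439% over all tested genes) and 0 were higher (0.966%), with a median log2 fold change of 0.01. The groups did not overlap in 3 as lower (2.85% over all) and in 1 as higher (7.76%). An adjusted p under 0.05 was found for 2 in limma (Mest and Igf2bp1), for 1 in edgeR (Mest) and for 4 in DESeq2 (H19, Airn, Cdkn1c and Mest), where the shares over all genes were 0.141%, 1.51% and 3.39%. Mest, a paternally expressed gene, was the one past both thresholds. It was at 56.7, 58.0 and 54.8 CPM in the control libraries, and at 20.7, 27.9, 24.5 and 23.5 CPM in the EPS libraries. The control libraries were nearly equal and the fall was the same in kind in all EPS libraries, with a log2 fold change of -1.20 and an SE of 0.15 (adjusted p = 0.0432 from limma, and 0.0665 without control replicate 4).

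H19, the maternally expressed non-coding RNA that shares its enhancers with Igf2, lies at chr7:142575529-142578143 (GRCm38). It was at 5035, 4863 and 9069 CPM in the control libraries, and at 3348, 2715, 3319 and 2519 CPM in the EPS libraries. The groups did not overlap (exact permutation test, p = 0.0286). The log2 fold change was -1.04 with an SE of 0.54, which did not pass the thresholds (adjusted p = 0.507 from limma and 0.00123 from DESeq2), and -0.74 without control replicate 4. The ratio of H19 to Igf2 reads was between 20.4 and 27.1 in the control and between 9.83 and 16.9 in the EPS group, without overlap. Ins2, on the other side of Igf2, was between 1.28 and 1.75 CPM in the EPS group and had a log2 fold change of -0.26, and Igf2os, listed under an older symbol, one of -0.08.

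Airn is the non-coding RNA transcribed against Igf2r that silences its paternal copy. It was at 1.63, 2.53 and 1.99 CPM in the control libraries, and at 0.931, 0.390, 0.594 and 0.690 CPM in the EPS libraries. All EPS libraries were below all control libraries, with a log2 fold change of -0.88, which is under 2-fold on this scale (adjusted p = 0.0946 from limma). The pseudocount shrinks the change of a gene at this level. The mean CPM was 3.15-fold lower, and on the recovered reads the log2 fold change was -1.73 in edgeR (adjusted p = 0.0846) and -1.76 in DESeq2 (adjusted p = 0.0143). Airn overlaps exons of Igf2r on the opposite strand, so reads on the stretch the pair shares can be told apart only if the counting used strand. Cdkn1c, an imprinted cell cycle inhibitor gene, was at 47.8 CPM on average in the control and 22.2 CPM in the EPS group, with overlapping groups (adjusted p = 0.338 from limma). Control replicate 4 was its highest library, and leaving it out moved the log2 fold change to -0.62.

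Of the IGF2 mRNA-binding proteins, Igf2bp1 was close to the limit of detection. Its reads numbered 0, 1 and 0 without EPS and 6, 7, 7 and 6 with EPS. Its log2 fold change of 0.37 had an adjusted p of 0.0450 from limma (0.0984 without control replicate 4) but is under 2-fold on this scale, and control replicate 4 lacked many genes at such levels. Igf2bp2 and Igf2bp3 had log2 fold changes of 0.34 and 0.01 and overlapping groups, and 0.03 and -0.04 without control replicate 4. The small changes of Ctsd, Akt1, Fbxo32 and Ins2 also took the opposite sign without that library, at 0.17, 0.07, -0.03 and 0.09.

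**Figure D5:**
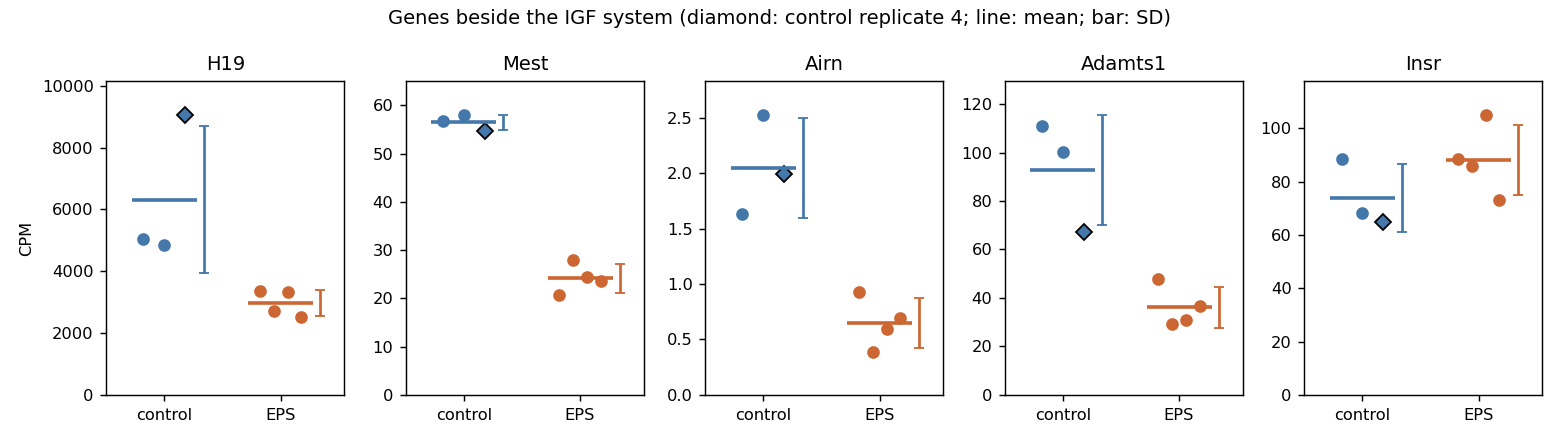
CPM of H19, Mest, Airn, Adamts1 and Insr in each library, with control libraries in blue and EPS libraries in orange, group means as lines and SD as bars (vertical axes start at 0). The EPS libraries lie below the control libraries for H19, Mest, Airn and Adamts1, whereas they overlap for Insr.

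The cells were checked against marker lists. Of 20 myotube genes, all were detected and 0 passed the thresholds in limma, with 2 at an unadjusted P under 0.05 (11.6% over all genes), 1 at an adjusted p under 0.05 in edgeR (1.51% over all genes) and 2 in DESeq2 (3.39%). Actn2, of the sarcomeric Z-disc, had a log2 fold change of -0.99 without overlap of the groups (adjusted p = 0.0202 in edgeR). Myog, a myogenic transcription factor gene, had one of -1.07 (adjusted p = 0.0303 in DESeq2) with overlapping groups, and -0.47 without control replicate 4, whose 1794 CPM was its highest level. Mymx, a fusion gene, had one of -0.999 (limma, adjusted p = 0.368). Ttn and Des, with the highest mean CPM of the list, had -0.29 and -0.46 with overlapping groups. The 5 genes with a positive log2 fold change were Mymk, Tnnt1, Tnni2, Tnnc2 and Mylpf, at 0.03 to 0.26. Without control replicate 4, Mymk and Tnnt1 were at -0.05 and -0.0009. Of the 20, 15 had a negative log2 fold change, as did 7021 of the 19144 tested genes. The median log2 fold change of the list was -0.25, and -0.18 without control replicate 4, against 0.04 over all tested genes. The summed level was 27994 to 33070 CPM in the control and 21750 to 30611 CPM in the EPS group. Of 14 markers of undifferentiated or cycling myoblasts, 0 passed in limma, with a median of 0.11, but 7 had an unadjusted P under 0.05 (11.6% over all genes) and 2 an adjusted p under 0.05 in both edgeR (1.51% over all genes) and DESeq2 (3.39%). Of these 7, the cell cycle genes Mki67, Top2a, Ccnb1, Cdk1 and Ccna2 had log2 fold changes between 0.86 and 1.38, whereas Id1 and Id3, inhibitors of myogenic factors, had -1.09 and -0.96. Without control replicate 4, the highest library of both, these were -0.65 and -0.73. Of the 14, 8 had a positive and 6 a negative log2 fold change, against 12123 and 7021 of all tested genes. Besides Id1 and Id3, the negative ones were Pax7, Id2, Hes1 and Ccnd1, at -0.12, -0.23, -0.51 and -0.71. Id2 was at 0.15 without control replicate 4. The summed level of the list was 576 to 659 CPM in the control and 683 to 1437 CPM in the EPS group, without overlap. This sum includes Mki67 at up to 452 CPM and Top2a at up to 262 CPM in the EPS group. Mki67, a gene of dividing cells, was at 131, 103 and 90.0 CPM in the control libraries, and at 391, 124, 205 and 452 CPM in the EPS libraries. The groups overlapped in part, because EPS replicate 2 was under control replicate 1. In RNA from whole cultures, fewer cells of a type and less RNA per cell cannot be told apart, and the part of dividing cells in the fall of Igf1 was not tested. Of 14 markers of fat, bone, cartilage, endothelial and blood cells, 12 were tested. In limma 0 passed the thresholds and 0 had an unadjusted P under 0.05 (11.6% over all genes). In edgeR and DESeq2 0 had an adjusted p under 0.05 (1.51% and 3.39% over all genes). Plin1 and Adgre1 were at 0 in all libraries, and Adipoq, Fabp4, Bglap, Acan and Ptprc were at most at 0.106 CPM. Sp7, Alpl and Cdh5 were at most at 0.350 CPM. Pecam1 reached 0.904 CPM in control replicate 4 and at most 0.0974 CPM elsewhere. The fat marker Pparg was detected throughout, at 4.25 to 6.32 CPM without EPS and 5.71 to 12.6 CPM with EPS. Its groups overlapped, and the limma estimate was 0.57 on the log2 scale (adjusted p = 0.529). The summed level of the 14 markers, mostly of Runx2 and Sox9, was 80.6 to 145 CPM in the control and 122 to 139.8 CPM in the EPS group.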

How the data were processed

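RNA-seq of C2C12 myotubes was analysed in 3 control and 4 EPS libraries, grouped by their labels. Poly(A) RNA was made into directional libraries, and STAR 2.5.4b placed the paired-end reads on GRCm38. The deposited values are CPM, in which the authors divided a gene's reads by all reads on the 26607 listed genes. The read counter, the gene annotation and the strand setting are not given in the sources used here. Every deposited CPM value (100%) lay within 0.05 reads of a whole multiple of the value of 1 read, so whole counts were recovered. No pair of libraries held identical values.

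The study's methods name edgeR, but the deposited unit is CPM, so log2(CPM + 1) was tested with limma 3.58.1 in R 4.3.3 (empirical Bayes with a mean-variance trend, no covariate) on the 19144 genes that were not at 0 throughout. DEGs passed a two-sided, unadjusted P of 0.01 and a change of 2-fold. Adjusted p-values are Benjamini-Hochberg values over all tested genes. For single genes, an exact permutation test (two-sided) ran over 35 splits. edgeR 4.0.16 and DESeq2 1.42.0 on the recovered counts, other pseudocounts, scalings and filters, and fits without each library were alternatives. The scripts were tested on simulated data. Nothing states that libraries came from separate cultures, so p-values measure only the spread between these libraries.

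The IGF genes and the gene lists were chosen with earlier results of these data known. Beside the 10 genes, the text names list genes past the thresholds, up to 2 highly expressed genes of each list, genes at the same loci, and the 3 genes most like each called gene, of which 1 is not reported here. The within-library ratios and the other named genes (Irs1, Irs2, Foxo1, Rps6kb1, Rps6kb2, Pik3cb, Cdkn1c, Igf2os, and the cell type markers) were picked after the values were seen. Gene coordinates and lengths are of GENCODE M21 (GRCm38). Lengths are the union of exons of basic protein-coding transcripts. Promoter windows are from RefSeq (GRCm38.p6). Of 142 list symbols, all were listed in the files, 5 of them under an older symbol.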

Additional observations from a re-analysis of the deposited data

How the results depend on the processing

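The number of DEGs over all genes was 269. It was 601 with a pseudocount of 0.1, 629 in edgeR's quasi-likelihood test with TMM, 631 without TMM, 585 in DESeq2, 161 with a replicate block and 106 at a P-value threshold of 0.001. Without each library in turn it was between 209 and 325. The share of DEGs that were higher was 68.8% as deposited, 51.6% with quantile normalization, 52.8% after median-of-ratios scaling and 52.3% in edgeR with TMM. Of the IGF genes 2 passed, and 1 passed at a P-value threshold of 0.001 or without control replicate 4, the range over left-out libraries being 1 to 2. The fall of Igf1 passed in all 17 other fits, with log2 fold changes between -1.88 and -1.37, including -1.73 with Rn45s left out of the library totals, a setting chosen after seeing the data. That of Igfbp3 passed in all but the fit without control replicate 4, where it was -0.9973, and lay between -1.2889 and -0.9973 over left-out libraries. Igf2 changed sign, to 0.0719 with a replicate block and to 0.1126 and 0.0719 without control replicate 4 and EPS replicate 2, with a range from -0.3156 to 0.1126 over left-out libraries. Igfbp4 was at -0.0664 without control replicate 3, and 1.0347 at most. Igfbp7 was at 0.0962 without control replicate 4, and -0.4885 at least. The cause of these changes was not tested. Igf1r, Igf2r, Igfbp2, Igfbp5 and Igfbp6 kept their direction and stayed short of the thresholds in each of these fits. Same-numbered libraries had correlated deviations of 0.25, -0.45 and 0.07 across genes for replicates 1, 3 and 4, so the numbers were not taken as pairs. The replicate block drops EPS replicate 2, which has no partner. It changed no call of an IGF gene, whereas Mymx, Mki67 and Top2a, which did not pass in limma without the block, passed both thresholds with it, at -1.36, 1.63 and 1.19. Depth limits what can be said of genes with few or no reads, such as Igf2bp1 and Igfbp1.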

Other observations

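The genes most like Igf1 over the 7 libraries were Adamts5, Ablim3 and Gfra1, by the root mean square difference of log2(CPM + 1) after each gene was centred on its mean, out of 9247 other genes with a mean of at least 10 CPM. These differences were 0.197, 0.222 and 0.228. Adamts5, a secreted protease of proteoglycans, was at 326, 226 and 239 CPM in control replicates 1, 3 and 4, and at 162, 78.4, 120.5 and 48.8 CPM in EPS replicates 1 to 4. Ablim3, an actin-binding protein gene, and Gfra1, a receptor for the neurotrophic factor GDNF, also had their lowest level in EPS replicate 4, at 14.2 and 16.1 CPM.

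Among the genes most like Igfbp3 were Itgb1bp2 and Ctgf, with differences of 0.197 and 0.227. Itgb1bp2, the muscle chaperone melusin, was at 96.1, 98.1 and 125 CPM in control replicates 1, 3 and 4, and at 52.9, 62.4, 47.9 and 55.3 CPM in EPS replicates 1 to 4. Ctgf, a matrix-associated protein gene whose product carries an IGFBP-like domain, was at 105, 106 and 191 CPM in the control libraries and at 56.8, 48.8, 44.9 and 52.4 CPM in the EPS libraries. As for Igfbp3, control replicate 4 was the highest library of both genes. These genes were picked by their likeness in these same libraries, so the likeness is a description.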
